A study of Mus musculus with 10 samples.

Results

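Transcript levels of 9 genes that set the G1 phase of the cell cycle were followed from pro-B to small pre-B cells of mouse bone marrow. They were the 3 D cyclin genes Ccnd1, Ccnd2 and Ccnd3, the kinase genes Cdk4 and Cdk6, the kinase inhibitor genes Cdkn2c, Cdkn2d and Cdkn1b, and the retinoblastoma gene Rb1. The genes were chosen by symbol, and all 9 were found among the 23420 genes of the count files. All 9 had enough counts to be tested, as did 14161 genes in all. RNA was sequenced from C57BL/6 mice in 10 libraries: 3 of small pre-B Mta2 KO cells, 3 of small pre-B control cells, 2 of pro-B Mta2 KO cells and 2 of pro-B control cells. The genotype label of the mutants is Mta2_VavKO, and Vav is a gene whose promoter is active throughout the blood lineages. The Mta2 protein belongs to NuRD, a complex that remodels nucleosomes and deacetylates histones. Pro-B cells were sorted as B220+ IgM- CD43+, and small pre-B cells as B220+ IgM- CD43- of small size. The control is labelled by that word alone, and age, sex, litter and animal of each library are not given in the sources used here, so the p-values reflect variation among libraries, which may be technical.

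D cyclins bind and activate CDK4 and CDK6, and the active kinases phosphorylate the retinoblastoma protein. Phosphorylation releases E2F transcription factors, which switch on the genes of DNA replication. INK4 proteins, among them p18 from Cdkn2c and p19 from Cdkn2d, bind CDK4 and CDK6 and keep the cyclin out. The CIP/KIP protein p27 from Cdkn1b binds cyclin and kinase complexes, including those of CDK2. In B cell development, pro-B cells and large pre-B cells divide under interleukin-7 and the pre-B cell receptor, and small pre-B cells leave the cycle while the light chain genes rearrange. Cyclin D3 is the D cyclin that pre-B cells of mice need for their expansion.

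Levels are given as counts per 1000000 counts of the library (CPM), scaled between libraries by the trimmed mean of M values (TMM). Levels of different genes are compared only after division by exon length, as CPM per kilobase (kb). Total counts were 17805507 to 38392136 in the small pre-B libraries and 48860391 to 52127004 in the pro-B libraries, and 3 counts corresponded to 0.0540 to 0.173 CPM. Small pre-B control 3 stood apart, with 0.953% of its counts in replication-dependent histone genes and 1.4% in the nuclear RNA Malat1. In the other 9 libraries these shares were at most 0.0399% and 0.290%. Small pre-B KO libraries 1 and 2 held more Xist than Y-linked RNA, unlike the other 8 libraries. Xist was at 2518 and 2942 CPM in these KO libraries, and Y-linked RNA at 8.13 and 0.0790 CPM. The small pre-B controls were all among the other 8, so this difference and genotype are partly confounded in small pre-B cells. A set of 6 B lineage markers (Cd79a, Pax5 and others) summed to 6777 to 8485 CPM in small pre-B KO cells and 7038 to 7709 CPM in the small pre-B controls, and to 2338 to 2729 CPM in pro-B KO cells and 2759 to 3116 CPM in pro-B controls. The pro-B libraries also held RNA of other cells. The 5 plasmacytoid dendritic cell markers summed to 1.77 to 21.9 CPM in the small pre-B libraries and 2230 to 2400 CPM in the pro-B libraries, and the 10 myeloid markers to 103 to 376 CPM in small pre-B and 6308 to 15090 CPM in pro-B libraries. The 8 T cell markers summed to 15.4 to 143 CPM in small pre-B and 445 to 565 CPM in pro-B libraries. Most of the pro-B sum was Cd4, with means of 301 CPM in KO cells and 265 CPM in controls, and Lck, with 101 and 116 CPM. Cd3e averaged 17.4 and 8.24 CPM there. The 6 natural killer markers summed to 8.32 to 149 CPM in small pre-B and 349 to 525 CPM in pro-B libraries. The 5 stem and progenitor markers summed to 13.4 to 42.9 CPM in small pre-B libraries, 645 to 741 CPM in pro-B KO libraries and 309 to 399 CPM in pro-B controls. Among the 6 erythroid markers, which summed to at most 16.7 CPM, Hba-a1 and Hba-a2 were at 0 in every library. Mta2 itself was at 199, 179 and 198 CPM in the small pre-B KO libraries, against 438, 246 and 412 CPM in the small pre-B controls. It was at 163 and 166 CPM in pro-B KO libraries, against 436 and 375 CPM in pro-B controls, so every KO library lay below every control. Its log2 fold change was -0.93 in small pre-B cells (edgeR adjusted p 0.042) and -1.31 in pro-B cells (edgeR adjusted p 0.212). The call in small pre-B cells was lost in 12 of 19 other settings, with adjusted p-values up to 0.25. Among these were the replicate block (0.0587), the compared groups alone (0.149) and leaving out any 1 library other than small pre-B control 2. In pro-B cells Mta2 passed under DESeq2 (adjusted p 0.00025), limma-voom (0.0358) and edgeR with the compared groups alone (0.0011) or without small pre-B control 2 (0.0115).

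The larger contrast was between the stages. In small pre-B cells, Ccnd1, Cdk4 and Cdkn2d had lower levels and Cdkn1b and Rb1 had higher levels than in pro-B cells, in both genotypes. Under edgeR's quasi-likelihood test with Benjamini-Hochberg adjustment and a threshold of 0.05, 2 of the 9 genes rose and 4 fell in Mta2 KO cells, and 2 rose and 4 fell in controls. Over all tested genes, 24% rose and 27.3% fell in Mta2 KO cells, and 26% rose and 29.4% fell in controls. The libraries of the stages did not overlap for 7 of the 9 genes in Mta2 KO cells and 9 of 9 in controls, against 75.9% and 73% of all tested genes. The median log2 fold change of the 9 genes was -0.44 in Mta2 KO cells and -0.70 in controls, beside -0.02 over all tested genes in each. In bulk RNA, fewer cells of a type and less RNA per cell cannot be told apart. The markers of other cells given above fell with the stage as well, with 5 of 5 plasmacytoid dendritic and 10 of 10 myeloid markers called in each genotype, and 4 of 8 T cell markers called in Mta2 KO cells and 8 of 8 in controls. Their part in the stage differences was not tested. Each stage was also sequenced to its own depth, and stage and any batch of handling cannot be told apart.

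Within a stage, none of the 9 genes passed the edgeR threshold for Mta2 KO against control. In small pre-B cells, 0 of 9 passed under edgeR, beside 3.02% of all tested genes. At an unadjusted p under 0.05 there were 2, Ccnd1 and Ccnd2, beside 3495 of all 14161 tested genes. Both passed under DESeq2, which called 1869 genes in all. Limma-voom called 0 of the 9, beside 313 higher and 124 lower genes in all. Ccnd1 and Ccnd2 were also the 2 of 9 genes whose KO and control libraries did not overlap, beside 25% of all genes. In pro-B cells, 0 of 9 passed under edgeR, DESeq2 and limma-voom, beside 0.0353% of all genes under edgeR. There 1 of the 9, Ccnd1, had an unadjusted p under 0.05, beside 913 of all 14161 tested genes. The pro-B libraries did not overlap for 7 of the 9 genes, beside 55.5% of all genes, with 2 libraries against 2. The myeloid marker sum was 10170 to 15090 CPM in pro-B KO libraries and 6308 to 6489 CPM in pro-B controls. The stem and progenitor sum was 645 to 741 CPM in pro-B KO libraries and 309 to 399 CPM in pro-B controls. Of the plasmacytoid dendritic markers, Klk1 averaged 7.01 and 85.4 CPM in these groups, Cd209d 5.06 and 53.8 CPM, and Cd209a 25.5 and 89.3 CPM. Siglech (1819 and 1622 CPM) and Ccr9 (474 and 413 CPM) were higher in the KO. None of these markers passed under edgeR, and their part in the pro-B values was not tested. The difference between the KO effects in small pre-B and pro-B cells passed for 0 of 9 genes under edgeR, DESeq2 and limma-voom, with 1, Ccnd2, at an unadjusted p under 0.05 in each. Over all genes that difference passed for 0 under edgeR (0%), with 907 at an unadjusted p under 0.05, for 58 under DESeq2 and for 0 under limma-voom.

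**Figure D1:**
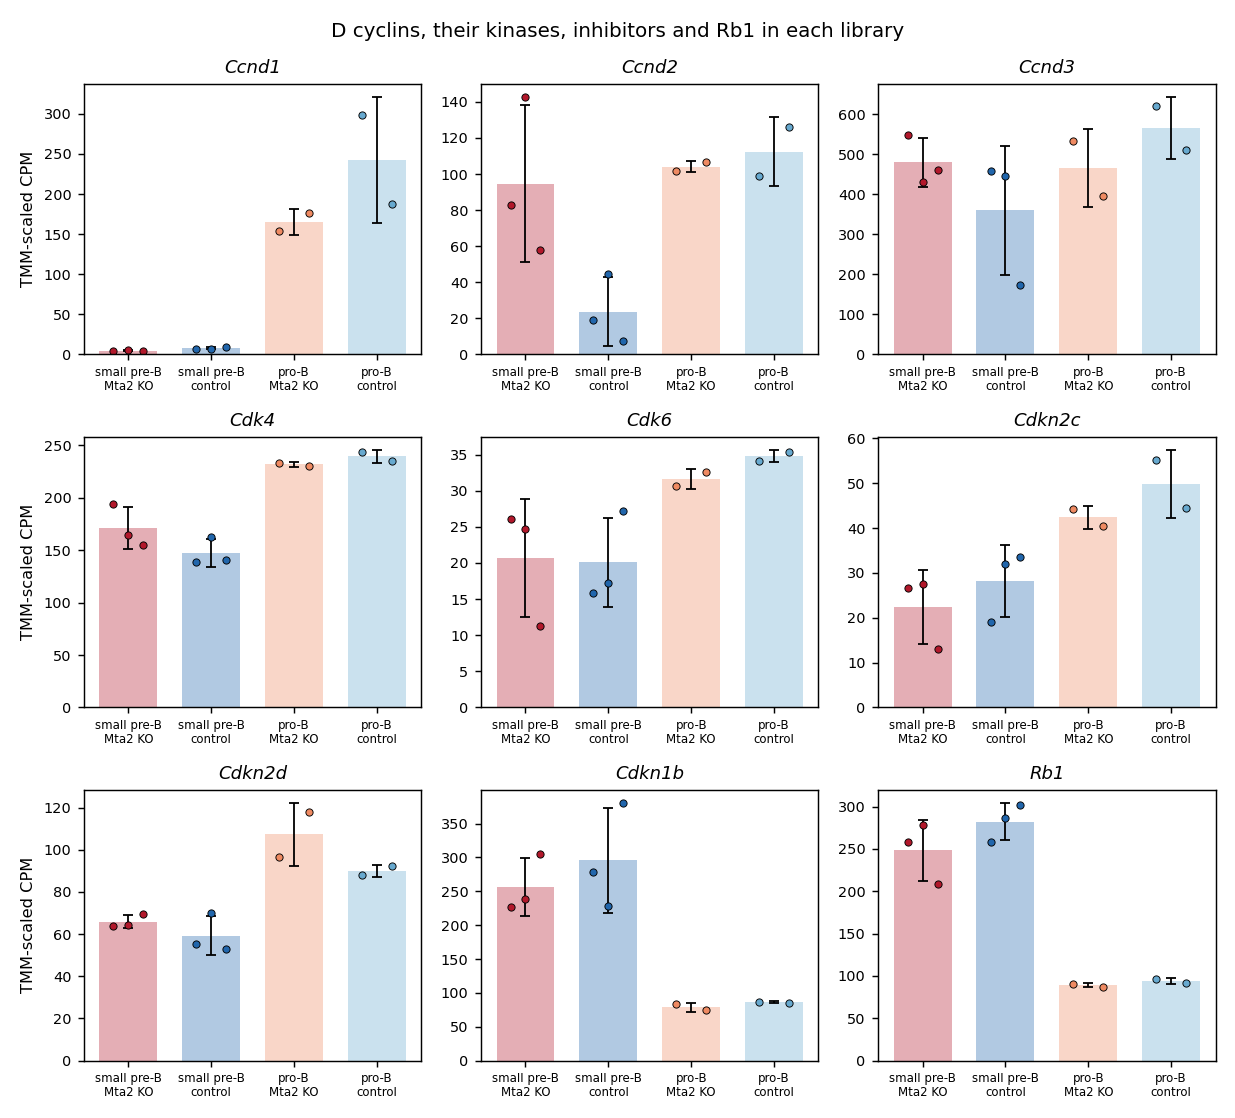
TMM-scaled CPM of the 9 genes in each library, with small pre-B Mta2 KO, small pre-B control, pro-B Mta2 KO and pro-B control from left to right. Points are libraries, bars the group means and error bars the SD (n = 3, 3, 2 and 2). Ccnd1 is near 0 in small pre-B cells on its axis, Cdkn1b and Rb1 are higher in small pre-B cells, and the small pre-B KO libraries of Ccnd2 lie above their controls.

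Ccnd1 (chr7:144929931-144939925, minus strand, mm10, 5 exon blocks) encodes cyclin D1, the D cyclin most tied to growth factor and integrin signalling in non-lymphoid cells. Its level was 3.92, 5.69 and 4.29 CPM in the small pre-B KO libraries, against 154 and 176 CPM in pro-B KO libraries. It was at 6.97, 6.61 and 8.69 CPM in the small pre-B controls, against 299 and 187 CPM in pro-B controls. Every small pre-B library was far below every pro-B library, in both genotypes. The log2 fold change between stages was -5.14 (SE 0.25) in Mta2 KO cells, with an adjusted p of 2.4e-06, and -5.03 (SE 0.24) in controls, with an adjusted p of 3.1e-06 (edgeR). Ccnd1 was 35.4-fold lower in small pre-B cells in the KO and 32.6-fold lower in the controls. Of the 9 genes its fold change was the largest in both genotypes. In pro-B cells the plasmacytoid dendritic and myeloid markers were also highest, and whether the Ccnd1 reads came from B lineage cells was not tested.

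Between genotypes, the Ccnd1 libraries did not overlap at either stage, and the KO libraries were the lower ones. Of all tested genes, 25% did not overlap in small pre-B cells and 55.5% in pro-B cells. Small pre-B KO cells averaged 4.63 ± 0.93 CPM and small pre-B controls 7.42 ± 1.12 CPM (SD, n = 3 each). The log2 fold change was -0.68 (SE 0.22), with an edgeR adjusted p of 0.107 and a DESeq2 adjusted p of 0.0394. In pro-B cells it was -0.56 (SE 0.24), with an edgeR adjusted p of 0.755, and there 1 control library had 299 CPM. A 20-base stretch of the Ccnd1 exons also belongs to Mir3962, which had 0 counts in every library.

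Ccnd2 (chr6:127125709-127151048, minus strand, mm10, 5 exon blocks) encodes cyclin D2, a D cyclin that B cells use in response to receptor signals. It was at 82.8, 143 and 58.1 CPM in the small pre-B KO libraries, against 19.3, 44.6 and 7.24 CPM in the small pre-B controls. It was at 102 and 106 CPM in pro-B KO libraries, against 99.0 and 126 CPM in pro-B controls. The 3 small pre-B controls were the lowest of the 10 libraries, and the small pre-B KO libraries lay above them, with 1 above both pro-B KO libraries. The means were 94.6 ± 43.7 CPM in small pre-B KO cells and 23.7 ± 19.0 CPM in small pre-B controls (SD, n = 3 each), and 104 ± 3.17 CPM in pro-B KO cells and 112 ± 18.9 CPM in pro-B controls (SD, n = 2 each). The small pre-B control mean was the lowest, and the other means were closer to each other than the SD of small pre-B KO cells.

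In small pre-B cells the Ccnd2 log2 fold change of Mta2 KO against control was 2.0 (SE 0.57), which is 4.0-fold, with an unadjusted p of 0.0061 and an edgeR adjusted p of 0.0846. Over 19 other settings it lay between 1.30 and 2.85 with adjusted p-values of 0.00293 to 0.404. It passed under DESeq2 (adjusted p 0.00293), under edgeR with the title number as a replicate block (0.0296) and under edgeR without small pre-B control 2 (0.0128). With a library left out it ran from 1.56 to 2.85. It did not pass without small pre-B control 3, the library that stood apart, which had the lowest Ccnd2 (7.24 CPM). The value of 1.30 came from leaving out the KO libraries with more Xist than Y-linked RNA, 1 and 2, which have the highest Ccnd2 levels of the 3 KO libraries. In pro-B cells the log2 fold change was -0.11 (SE 0.66), with an edgeR adjusted p of 1. That SE rests on a spread shared by all 4 groups, while the pro-B libraries themselves ran from 99.0 to 126 CPM. The difference between the effects at the 2 stages was 2.11 (SE 0.87), with an unadjusted p of 0.0371 and an edgeR adjusted p of 0.738, so it did not pass. The same contrast sets the stage effects apart: Ccnd2 had a log2 fold change of -0.14 (SE 0.60, edgeR adjusted p 0.864) between small pre-B and pro-B cells in the KO, and fell in controls, by 2.25 on the log2 scale (SE 0.61, edgeR adjusted p 0.0116). Without pro-B control 2 the fall in controls had an edgeR adjusted p of 0.0600. The KO comparison and the control stage comparison share the small pre-B controls.

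Other transcripts stood at unequal levels in the same small pre-B libraries. Of the T cell markers, 3 of 8 rose in small pre-B KO cells (Cd3e, Cd3d and Cd3g), beside 267 of all 14161 tested genes. The 8 markers summed to 79.8 to 143 CPM in KO cells and 15.4 to 58.9 CPM in controls. Cd3e, part of the CD3 signalling module of T cells, averaged 10.03 ± 5.81 CPM in KO cells and 0.252 ± 0.210 CPM in controls (SD, n = 3 each). Cd4 was at most 4.62 CPM in the KO libraries and 3.18 CPM in the controls. Most of the summed level was Lck, at 72.1 ± 14.2 CPM in KO cells and 31.7 ± 19.1 CPM in controls (SD, n = 3 each). Lck did not pass (edgeR adjusted p 0.120). Of the 7 gate and stage markers, Kit rose, with 56.4 ± 23.3 CPM in small pre-B KO cells and 9.80 ± 5.70 CPM in controls (SD, n = 3 each), and Il2ra fell. Over all 14161 tested genes, 267 were higher and 161 lower. The other gate and stage markers did not pass (edgeR adjusted p 0.058 to 0.436). Their log2 fold changes were 1.29 for Vpreb1, 1.27 for Igll1, 1.22 for Dntt, -0.25 for Spn and -1.45 for Cd2. The part of these T cell, gate and stage markers in the Ccnd2 values was not tested. The transcripts whose profiles over the 10 libraries were closest to that of Ccnd2, among 10695 compared, were Gimap4, Maoa, Ccdc64, Gimap3 and Tcf7. Their root mean square differences from it in centred log2 CPM ran from 0.330 for Gimap4 to 0.449 for Tcf7. Gimap4 averaged 93.8 CPM in small pre-B KO cells and 28.2 CPM in controls. For KO against control in small pre-B cells, Maoa had an edgeR adjusted p of 0.0481 and the others had 0.107 to 0.162. These transcripts were picked for their likeness to Ccnd2 in these libraries, so their higher KO levels follow from the choice.

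Ccnd3 (chr17:47505051-47599688, plus strand, mm10, 7 exon blocks) encodes cyclin D3. It was at 549.8, 431 and 460.2 CPM in the small pre-B KO libraries, against 459, 447 and 174 CPM in the small pre-B controls. It was at 534 and 397 CPM in pro-B KO libraries, against 622 and 511 CPM in pro-B controls. Small pre-B control 3, the library that stood apart, was the lowest of the 10, and the KO and control libraries overlapped at both stages. The log2 fold change of KO against control was 0.42 (SE 0.32) in small pre-B cells and -0.28 (SE 0.39) in pro-B cells, with edgeR adjusted p-values of 0.441 and 1. Without small pre-B control 3 the first value was 0.08 (edgeR adjusted p 0.820). Between stages it was 0.04 (SE 0.36) in Mta2 KO cells and -0.66 (SE 0.35) in controls, with edgeR adjusted p-values of 0.928 and 0.138. Of the Ccnd3 exons, 15.8% (358 bases) are shared with Bysl on the opposite strand, and since reads were counted without regard to strand the Ccnd3 values are less certain. Bysl ran from 25.9 to 38.2 CPM over the 10 libraries. The closest profiles to Ccnd3 were those of Cherp, Pom121, Uqcrq, Gar1 and Pabpc1, at root mean square differences of 0.101 for Cherp to 0.149 for Pabpc1.

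Per kilobase of exon, Ccnd3 had the highest mean of the 9 transcripts in all 4 groups. In small pre-B controls its mean (159 ± 71.3 CPM per kb) differed from that of Cdkn1b (123 ± 32.2) and in pro-B KO cells its mean (206 ± 42.9) from that of Cdk4 (172 ± 1.70) by less than the SD of Ccnd3. In small pre-B control 3 Ccnd3, at 77.0 CPM per kb, was below Cdkn1b (158) and Cdk4 (105). It made up 87.9 to 94.8% of the summed D cyclin level in small pre-B KO libraries and 95.4 to 97.5% in small pre-B controls, and 73.0 to 80.3% in pro-B KO and 74.2 to 76.1% in pro-B control libraries. Ccnd1 gave 0.400 to 0.691% in small pre-B KO libraries and 0.840 to 2.84% in small pre-B controls, and 13.8 to 19.3% in pro-B KO and 16.6 to 21.2% in pro-B control libraries. The Ccnd2 share was 5.55, 11.4 and 4.69% in small pre-B KO libraries, against 1.60, 3.73 and 1.56% in small pre-B controls. Ccnd3 stood 17.0, 7.69 and 20.2 times above Ccnd2 in the small pre-B KO libraries, against 60.8, 25.6 and 61.3 times in the controls. In small pre-B cells these shares and ratios did not overlap between the genotypes, and in pro-B cells they overlapped. For the levels of single genes, 25% of all tested genes did not overlap in small pre-B cells. The shares and ratios are given without a test. The summed D cyclin level was 259, 217 and 215 CPM per kb in small pre-B KO libraries, against 208, 207 and 80.5 CPM per kb in small pre-B controls, and the low value is that of control 3. In pro-B cells it was 295 and 240.5 CPM per kb in KO libraries, against 371 and 297 CPM per kb in controls.

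**Figure D2:**
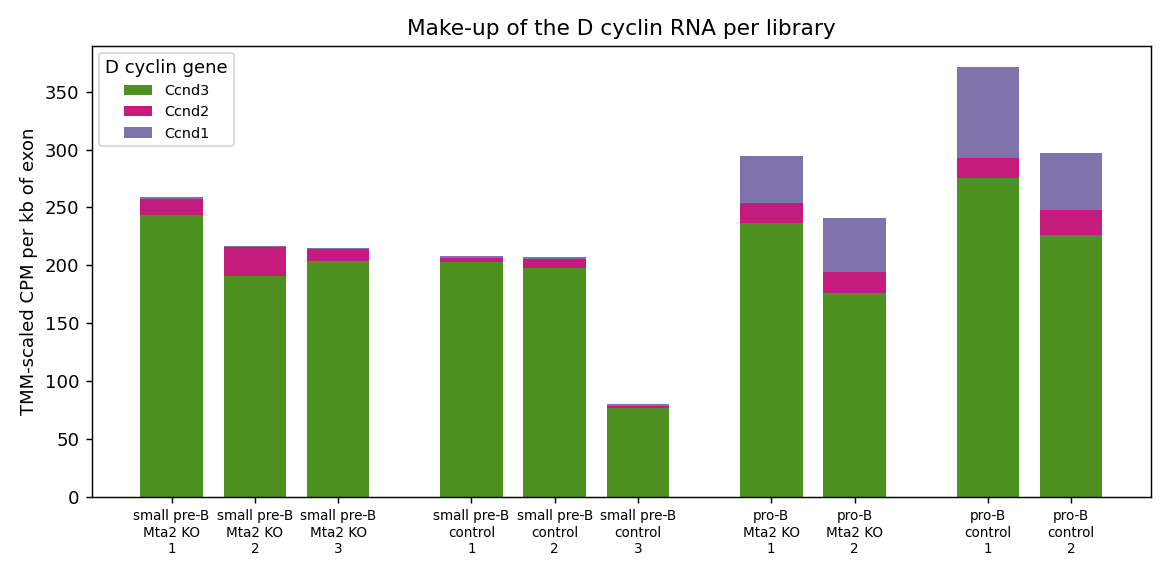
Stacked levels of Ccnd3, Ccnd2 and Ccnd1 in TMM-scaled CPM per kb of exon, with 1 bar for each library. Ccnd1 takes 13.8 to 21.2% of the bar in pro-B libraries and at most 2.84% in small pre-B libraries, and Ccnd2 takes 4.69 to 11.4% in small pre-B KO libraries, against 1.56 to 3.73% in their controls.

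Cdk4 (chr10:127063603-127067282, plus strand, mm10, 8 exon blocks) encodes a catalytic partner of the D cyclins. It was at 194, 165 and 155 CPM in the small pre-B KO libraries, against 234 and 230.3 CPM in pro-B KO libraries. It was at 138, 162 and 141 CPM in the small pre-B controls, against 244 and 235 CPM in pro-B controls. Every small pre-B library was below every pro-B library. Cdk4 fell with the stage, by 0.44 on the log2 scale (SE 0.12) in Mta2 KO cells and by 0.70 (SE 0.12) in controls, with edgeR adjusted p-values of 0.0138 and 0.0011. The fall in the KO was not called without pro-B KO 1 (edgeR adjusted p 0.0736) or without pro-B KO 2 (0.0672). Between genotypes the log2 fold change was 0.22 (SE 0.11) in small pre-B cells and -0.05 (SE 0.13) in pro-B cells, with edgeR adjusted p-values of 0.248 and 1.

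Cdk6 (chr5:3344312-3522225, plus strand, mm10, 7 exon blocks) encodes the other kinase that D cyclins activate. It was at 26.1, 24.7 and 11.3 CPM in the small pre-B KO libraries, against 30.7 and 32.5 CPM in pro-B KO libraries. It was at 15.8, 17.3 and 27.2 CPM in the small pre-B controls, against 34.2 and 35.4 CPM in pro-B controls. The small pre-B libraries were all below the pro-B libraries but spread widely, and the log2 fold changes of -0.61 (SE 0.34) in the KO and -0.79 (SE 0.34) in controls did not pass (edgeR adjusted p 0.157 and 0.0714). Without small pre-B control 3, the control with the highest Cdk6, the control value was -1.07 (edgeR adjusted p 0.0189). The control value passed in 5 of 18 other settings, DESeq2 and limma-voom among them. The KO value passed in 1 of 18, without the KO libraries with more Xist than Y-linked RNA, where it was -1.49 (edgeR adjusted p 0.0146) and rested on the KO library with the lowest Cdk6. Between genotypes the log2 fold change was 0.04 (SE 0.31) in small pre-B cells, where 6 of 19 other settings turned its sign, and -0.14 (SE 0.37) in pro-B cells. Per kilobase, Cdk4 was 12.2 to 25.2 times as abundant as Cdk6 in small pre-B KO libraries and 9.52 to 17.2 times in small pre-B controls, and 12.99 to 13.98 times in pro-B KO and 12.2 to 13.1 times in pro-B control libraries.

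The promoters of the kinases and of Ccnd3 are shown because they belong to the kinases, of which Cdk4 fell with the stage and Cdk6 did not pass, and to the D cyclin with the largest share in every library. Sequences are from RefSeq (GRCm38.p6, the build called mm10), 250 bases before to 50 after the annotated start, and 6 of the 9 genes matched the table with 8 promoters. Ccnd1, Ccnd2 and Rb1 are named only. Capitals mark matches, on either strand, to the E-box CACGTG, the E2F motif TTTNNCGC or the FOXO motif GTAAACA. The STAT motif TTCNNNGAA and the octamer ATTTGCAT were also searched, no matches overlapped, and the 3 windows shown are on the plus strand.
Cdk4 promoter, chr10:127063285-127063584: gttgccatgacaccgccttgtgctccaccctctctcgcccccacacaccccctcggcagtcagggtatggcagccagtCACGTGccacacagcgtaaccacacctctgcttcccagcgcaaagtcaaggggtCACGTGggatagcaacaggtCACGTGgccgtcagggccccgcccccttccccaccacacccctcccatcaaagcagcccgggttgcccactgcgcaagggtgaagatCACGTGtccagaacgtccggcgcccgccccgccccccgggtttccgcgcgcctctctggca
Cdk6 promoter, chr5:3343643-3343942: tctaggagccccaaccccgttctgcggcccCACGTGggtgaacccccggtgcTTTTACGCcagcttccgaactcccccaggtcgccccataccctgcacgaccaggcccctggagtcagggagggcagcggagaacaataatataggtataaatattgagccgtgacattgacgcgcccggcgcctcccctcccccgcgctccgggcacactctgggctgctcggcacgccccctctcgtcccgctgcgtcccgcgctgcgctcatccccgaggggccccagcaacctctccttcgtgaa
Ccnd3 promoter, upstream start, chr17:47504801-47505100: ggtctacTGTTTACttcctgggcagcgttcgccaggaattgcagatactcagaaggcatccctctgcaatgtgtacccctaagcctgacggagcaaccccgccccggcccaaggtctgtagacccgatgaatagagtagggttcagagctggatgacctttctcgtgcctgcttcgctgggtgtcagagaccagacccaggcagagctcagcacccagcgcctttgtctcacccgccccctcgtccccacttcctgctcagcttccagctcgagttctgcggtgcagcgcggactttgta

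The Cdk4 window held 4 E-boxes, at 172, 118, 98 and 11 bases before the start. At least 1 E-box was in 7.15% of the 32851 mouse promoters of the table, and at least 4 were in 8 of them, or 0.0244%. The E-box is the sequence that MYC and its partner MAX, and other factors of their class, bind. The Cdk6 window held 1 E-box and 1 E2F motif, 220 and 198 bases before the start, and the E2F motif was in 5.17% of promoters. The upstream Ccnd3 window held 1 FOXO motif, 243 bases before the start, a motif in 3.65% of promoters. The other Ccnd3 window (chr17:47593217-47593516), which is not shown, held none of the motifs. Which Ccnd3 start these cells used was not tested. One of the windows of Cdkn2c held 1 E-box and the other none of the motifs, and those of Cdkn2d and Cdkn1b held none of the motifs. STAT and octamer motifs were in 0 of the 8 windows, beside 8.30% and 1.74% of all promoters. A match describes letters in a window and is not evidence of binding.

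Cdkn2c (chr4:109660876-109665372, minus strand, mm10, 2 exon blocks) encodes the INK4 protein p18. It was at 26.7, 27.5 and 12.96 CPM in the small pre-B KO libraries, against 44.2 and 40.6 CPM in pro-B KO libraries. It was at 19.0, 32.0 and 33.6 CPM in the small pre-B controls, against 55.2 and 44.5 CPM in pro-B controls. All small pre-B libraries were below all pro-B libraries. Cdkn2c fell in Mta2 KO cells, by 0.92 on the log2 scale (SE 0.33, edgeR adjusted p 0.0402), and its value in controls was -0.82 (SE 0.33, edgeR adjusted p 0.0568). Both calls depended on the setting: in the KO the call was lost in 5 of 18 other settings, with adjusted p-values up to 0.151, and in controls Cdkn2c passed in 6 of 18. Between genotypes it was -0.34 (SE 0.30) in small pre-B cells and -0.23 (SE 0.36) in pro-B cells, with edgeR adjusted p-values of 0.512 and 1.

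Cdkn2d (chr9:21288464-21291209, minus strand, mm10, 2 exon blocks) encodes the INK4 protein p19. It was at 64.0, 64.3 and 69.6 CPM in the small pre-B KO libraries, against 96.7 and 118 CPM in pro-B KO libraries. It was at 55.2, 70.0 and 52.8 CPM in the small pre-B controls, against 87.9 and 92.1 CPM in pro-B controls. The small pre-B libraries again lay below all pro-B libraries. Cdkn2d fell with the stage, by 0.70 on the log2 scale (SE 0.14) in Mta2 KO cells and by 0.60 (SE 0.14) in controls, with edgeR adjusted p-values of 0.0028 and 0.0059. Without the KO libraries with more Xist than Y-linked RNA, the adjusted p in the KO was 0.0611. In pro-B cells both KO libraries were above both controls, with a log2 fold change of 0.25 (SE 0.16, edgeR adjusted p 0.976), and in small pre-B cells the libraries overlapped, with 0.15 (SE 0.13, edgeR adjusted p 0.485).

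Per kilobase, the summed INK4 level was 0.483 to 0.571 of the summed kinase level in small pre-B KO libraries and 0.556 to 0.659 in small pre-B controls, and 0.625 to 0.703 in pro-B KO and 0.597 to 0.611 in pro-B control libraries. The small pre-B libraries lay below the pro-B libraries in Mta2 KO cells and overlapped them in controls. For the levels of single genes, 75.9% of all tested genes did not overlap between stages in Mta2 KO cells and 73% in controls. Between genotypes, the KO libraries lay above the controls in pro-B cells, where 55.5% of single genes did not overlap, and overlapped them in small pre-B cells. These proportions are given without a test.

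Cdkn1b (chr6:134920401-134925525, plus strand, mm10, 3 exon blocks) encodes p27. It was at 226, 238 and 305 CPM in the small pre-B KO libraries, against 83.0 and 74.2 CPM in pro-B KO libraries. It was at 278, 229 and 380.5 CPM in the small pre-B controls, against 87.1 and 85.1 CPM in pro-B controls. The lowest small pre-B library, at 226 CPM, lay far above the highest pro-B library, at 87.1 CPM. Cdkn1b rose with the stage, by 1.71 (SE 0.22) on the log2 scale in Mta2 KO cells and 1.78 (SE 0.22) in controls, which is 3.26-fold and 3.44-fold, with edgeR adjusted p-values of 0.00024 and 0.00018. Its rise was called in all 18 other settings in both genotypes. Between genotypes the log2 fold change was -0.21 (SE 0.19) in small pre-B cells and -0.13 (SE 0.23) in pro-B cells, with edgeR adjusted p-values of 0.518 and 1, and the highest library was small pre-B control 3. Per kilobase, Cdkn1b was 0.654, 0.808 and 1.10 times the level of Cdk4 in small pre-B KO libraries, against 1.13, 0.790 and 1.51 times in small pre-B controls. It was 0.199 and 0.180 times the level of Cdk4 in pro-B KO libraries, against 0.200 and 0.203 times in pro-B controls. In the order of levels per kilobase Cdkn1b took rank 3 of 9 in small pre-B KO cells (107 ± 17.8) and rank 2 in small pre-B controls (123 ± 32.2), and rank 6 in both pro-B groups (32.7 ± 2.58 in KO cells and 35.8 ± 0.603 in controls, CPM per kb, SD). In small pre-B controls its level and that of Cdk4 (109 ± 9.75 CPM per kb) differed by less than the SD of Cdkn1b.

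Rb1 (chr14:73195502-73325791, minus strand, mm10, 27 exon blocks) encodes the protein that the cyclin D kinases phosphorylate. It was at 258, 278 and 209 CPM in the small pre-B KO libraries, against 90.5 and 87.5 CPM in pro-B KO libraries. It was at 258, 287 and 302 CPM in the small pre-B controls, against 96.8 and 91.8 CPM in pro-B controls. The small pre-B libraries were all far above the pro-B libraries. Rb1 rose with the stage, by 1.48 (SE 0.14) on the log2 scale in Mta2 KO cells and 1.58 (SE 0.14) in controls, which is 2.79-fold and 2.99-fold, with edgeR adjusted p-values of 4.0e-05 and 3.1e-05, and in all 18 other settings. Between genotypes the log2 fold change was -0.18 (SE 0.12) in small pre-B cells and -0.08 (SE 0.15) in pro-B cells, with edgeR adjusted p-values of 0.362 and 1.

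**Figure D3:**
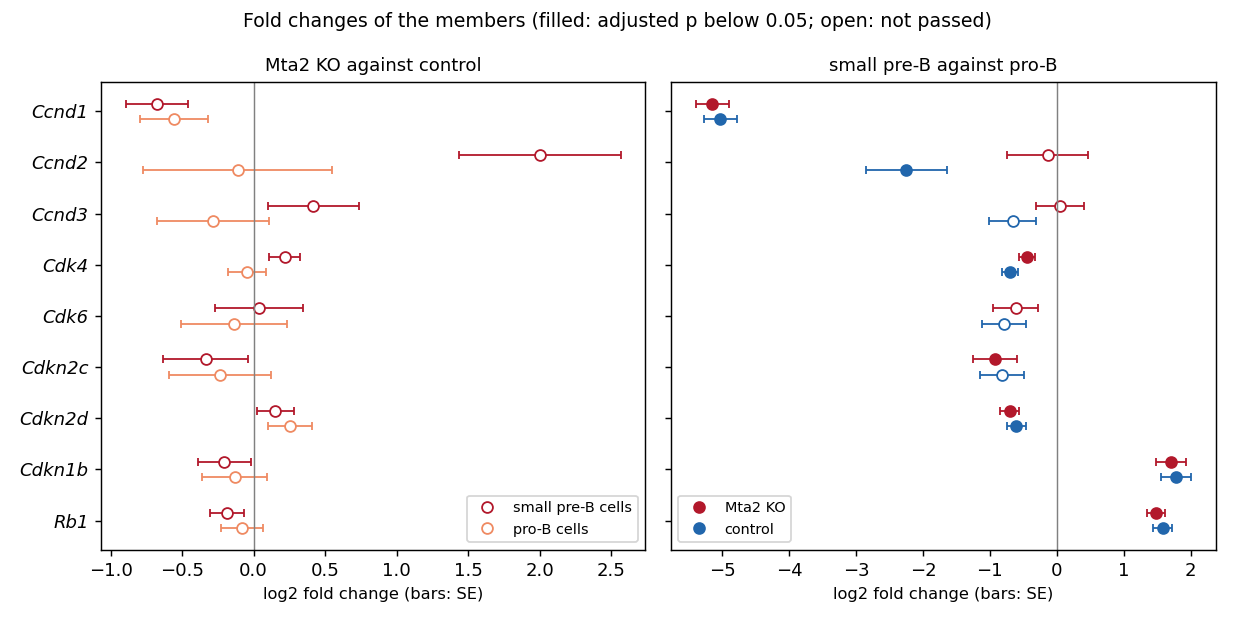
Fitted log2 fold changes with SE of the 9 genes, for Mta2 KO against control (left) in small pre-B and pro-B cells and for small pre-B against pro-B (right) in Mta2 KO and control cells. The SE of each gene rests on a spread shared by the 4 groups. Filled points have an edgeR adjusted p below 0.05. All points on the left are open, with Ccnd2 in small pre-B cells at 2.0, and on the right Ccnd1 lies near -5 while Cdkn1b and Rb1 lie between 1.48 and 1.78.

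Other genes of the pathway were read from 5 lists, of which 46 of 48 genes were tested. For Mta2 KO against control, 0 of the 46 passed under edgeR at either stage, with 4 at an unadjusted p under 0.05 in small pre-B cells and 1 in pro-B cells. DESeq2 called 2 in small pre-B cells, Fzr1 and Tfdp2, and 0 in pro-B cells, and limma-voom called 0 in both. Over all 14161 tested genes, 3495 had an unadjusted p under 0.05 in small pre-B cells and 913 in pro-B cells. DESeq2 called 1869 of all tested genes in small pre-B cells and 182 in pro-B cells. In small pre-B cells the smallest adjusted p in the lists was that of Tfdp2, a dimer partner of E2F proteins, at 170.0 ± 11.03 CPM in KO cells and 222 ± 19.8 CPM in controls (SD, n = 3 each), with a log2 fold change of -0.39 (SE 0.10, edgeR adjusted p 0.0668). Fzr1, an activator of the anaphase-promoting complex in G1, was at 89.8 ± 3.67 CPM in KO cells and 72.0 ± 7.78 CPM in controls, with 0.32 (SE 0.10, edgeR adjusted p 0.0990). The 15 E2F targets of S phase entry had a median log2 fold change of 0.05 in small pre-B cells and -0.26 in pro-B cells, beside 0.01 and -0.01 over all tested genes. Mki67, a marker of cycling cells, had -0.53 (SE 0.36, edgeR adjusted p 0.377) in small pre-B cells.

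Between stages, of the 12 genes of other pocket proteins, E2F and their partners, 2 rose and 3 fell in Mta2 KO cells, and 2 rose and 5 fell in controls. As given above, 24% of all tested genes rose and 27.3% fell in Mta2 KO cells, and 26% rose and 29.4% fell in controls, so the list's counts in the KO are near the background. The 2 that rose were E2f2 and Tfdp2 in both genotypes. E2f2, of the activating class of E2F genes, was at 1030.3 ± 40.7 CPM in small pre-B KO cells and 272 ± 37.1 CPM in pro-B KO cells, with a log2 fold change of 1.92 (SE 0.20, edgeR adjusted p 7.4e-05). It was at 833 ± 204 CPM in the small pre-B controls and 335 ± 24.4 CPM in pro-B controls, with 1.31 (SE 0.20, edgeR adjusted p 0.00054). E2f3 and E2f4 were among those that fell in both genotypes. Tfdp1 fell in controls, by 1.20 on the log2 scale (SE 0.25, edgeR adjusted p 0.0033), and had -0.56 (SE 0.25, edgeR adjusted p 0.0911) in the KO.

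Of the genes for cyclin E, cyclin A and CDK2, 3 of 6 fell in each genotype and 0 rose, beside 27.3% of all tested genes that fell in Mta2 KO cells and 29.4% in controls. They were Ccna2, the S phase and mitotic cyclin A, Cdk1, its mitotic kinase, and Cdc25a, a phosphatase that activates cyclin-dependent kinases. Cdk1 fell by 2.01 on the log2 scale (SE 0.44) in Mta2 KO cells and by 2.13 (SE 0.44) in controls, with edgeR adjusted p-values of 0.0043 and 0.0030. Ccna2 was at 84.3 ± 39.6 CPM in small pre-B KO cells and 283 ± 24.6 CPM in pro-B KO cells, and at 110.0 ± 47.6 CPM in the small pre-B controls and 344 ± 53.7 CPM in pro-B controls. Of the 15 E2F targets, 4 fell in Mta2 KO cells and 5 fell in controls, close to those shares of all tested genes, and 0 rose in either, beside 24% and 26% of all tested genes. Tyms and Tk1, of thymidylate synthesis, were among them in both genotypes: Tyms fell by 1.75 (SE 0.37) in the KO and by 1.73 (SE 0.37) in controls on the log2 scale, with edgeR adjusted p-values of 0.0038 and 0.0037. The medians of the 15 were -0.24 in Mta2 KO cells and -0.64 in controls.

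Of the 10 genes for the turnover and control of D cyclins and p27, 2 rose and 4 fell in Mta2 KO cells, and 3 rose and 5 fell in controls. Over all tested genes the shares were 24% and 27.3% in the KO and 26% and 29.4% in controls. Foxo1, a transcription factor that acts on Cdkn1b in several cell types, rose most, at 661 ± 41.8 CPM in small pre-B KO cells and 151 ± 18.6 CPM in pro-B KO cells, and at 561 ± 56.0 CPM in the small pre-B controls and 146 ± 2.62 CPM in pro-B controls. Its log2 fold change was 2.13 (SE 0.14) in Mta2 KO cells and 1.95 (SE 0.13) in controls, with edgeR adjusted p-values of 6.4e-06 and 9.8e-06. Gsk3b, the kinase that marks cyclin D1 for degradation, rose in both genotypes, by 0.62 on the log2 scale (SE 0.12, edgeR adjusted p 0.0023) in Mta2 KO cells and by 0.71 (SE 0.12, edgeR adjusted p 0.0011) in controls. Cks1b and Cks2 encode small subunits of cyclin-dependent kinases, and CKS1 is needed for the ubiquitination of p27. Cks2 fell by 1.60 (SE 0.19) in Mta2 KO cells and by 1.76 (SE 0.19) in controls on the log2 scale, with edgeR adjusted p-values of 0.00014 and 8.6e-05. Cks1b fell by 1.29 (SE 0.27) in Mta2 KO cells and by 1.83 (SE 0.27) in controls, with edgeR adjusted p-values of 0.0035 and 0.00049. Of the other inhibitors 0 of 3 passed under edgeR in either genotype, also at an unadjusted p under 0.05, while limma-voom called Cdkn1a in controls. Cdkn1a, which encodes p21, was at 16.6 ± 1.84 CPM in small pre-B KO cells and 22.4 ± 2.94 CPM in pro-B KO cells, and at 11.4 ± 8.26 CPM in the small pre-B controls and 23.5 ± 0.168 CPM in pro-B controls.

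**Figure D4:**
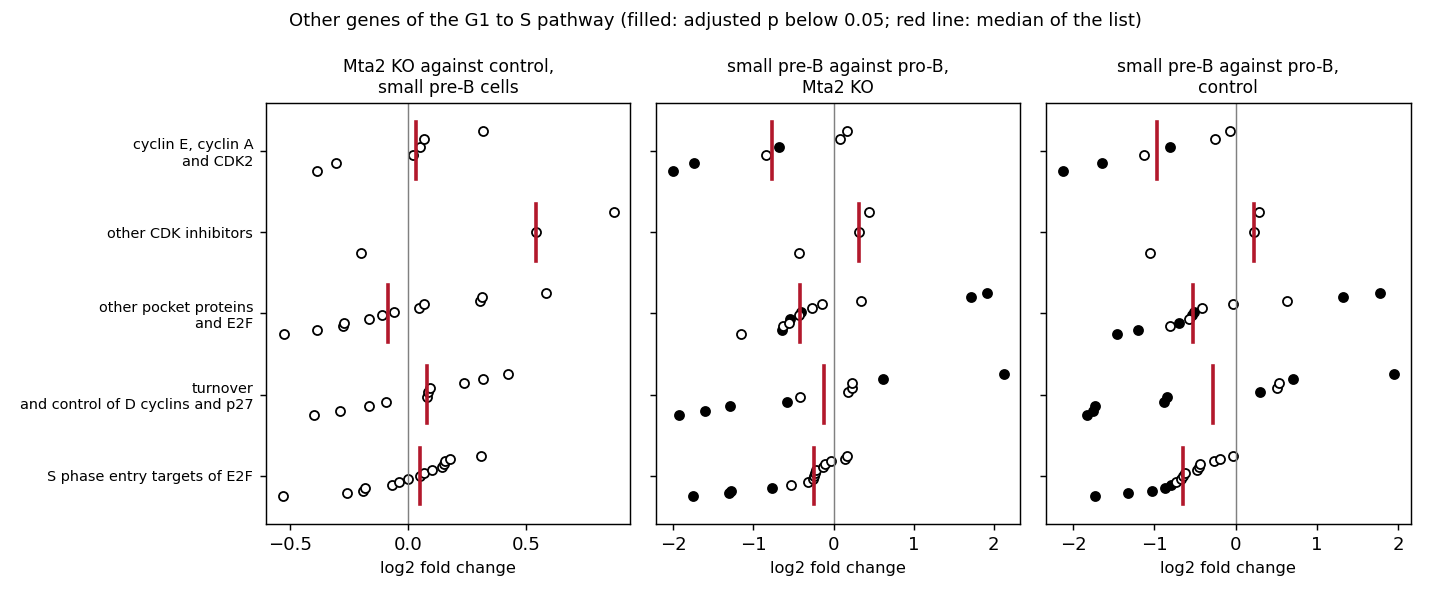
Log2 fold changes of the 46 tested genes in 5 lists of the G1 to S pathway, 1 point for each gene, for Mta2 KO against control in small pre-B cells and for small pre-B against pro-B in Mta2 KO and in control cells. Filled points have an edgeR adjusted p below 0.05 and red lines are list medians. No point is filled in the left panel, while Foxo1 stands at 2.13 and 1.95 in the stage panels.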

How the data were processed

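RNA sequencing counts of 10 libraries were used, grouped by genotype and cell type as the labels give them. The deposited values are raw counts of reads for each gene, made by the authors with featureCounts 1.4.3-p1 over exons of an mm10 annotation with no strand option, per the file headers. The kit keeps the strand, per the labels' protocols. CASAVA 1.82, STAR and genome mm9 are named in the submitters' processing notes, while exon positions in the files are mm10. One library, small pre-B control 3, has 931 in its title but 919 in its header. Genes were filtered with filterByExpr (minimum count 10, minimum total count 15). TMM scaling and edgeR 4.0.16 (R 4.3.3) robust quasi-likelihood F-tests followed. One model held the 4 group means, giving 5 comparisons with Benjamini-Hochberg adjustment over 14161 genes and a prior count of 0.125. The SE of a log2 fold change is its absolute value divided by the square root of the F statistic. It therefore rests on a spread per gene that the 4 groups share, and not on the compared libraries alone. Scripts were tested on simulated data. Alternatives used DESeq2 1.42.0, limma 3.58.1 (voom), other scalings, filters and libraries. Named pathway genes are up to 4 of each list with the smallest p in a comparison, and profile neighbours the 5 closest with a mean of at least 2 CPM. The 9 genes and all lists were chosen with earlier results of these data known. Floors cover counting error only. Within groups, replicate libraries differed by more than sampling noise, so none was counted as a duplicate. The result of 1 gene of the B lineage marker list is not reported here.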

Additional observations from a re-analysis of the deposited data

How the results depend on the processing

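The 9 genes and Mta2 were refitted under 18 or 19 alternatives. Members past the threshold for Mta2 KO against control in small pre-B cells numbered 2 under DESeq2, 1 with the replicate block and 0 to 1 with a library left out, against 0 in the fit reported. All-gene counts moved far more, and the cause was not tested. For KO against control in small pre-B cells, 428 genes passed, 1869 under DESeq2, 0 with the compared groups alone, 153 with the replicate block, 0 without the libraries with more Xist than Y-linked RNA, and 1 to 1667 with a library left out (1 without small pre-B control 1, 1667 without small pre-B control 2). In pro-B cells, 5 passed, 182 under DESeq2, 148 under limma-voom, 8 with no count filter, 8 with the filter of 1 CPM, 856 with the compared groups alone, 0 with the replicate block, 0 without the Xist libraries and 0 to 25 with a library left out. The difference between these effects was called for 0 genes, 58 under DESeq2 and 0 to 40 with a library left out. The stage comparison in Mta2 KO called 7262 genes, and 4673 (without pro-B KO 2) to 8657 with a library left out.

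Among the 9 genes, signs turned only for log2 fold changes that had not passed. For KO against control in small pre-B cells, Cdk6 had -0.076 under limma-voom and -0.83 without the Xist libraries, and Cdkn1b had 0.052 without them. Without them the differences of the KO effect were -0.69 for Cdk6 and 0.18 for Cdkn1b, and the stage value of Ccnd3 in the KO was -0.019. With a library left out, KO against control ran from -0.27 to 0.073 for Ccnd2 in pro-B cells, and in small pre-B cells from -0.16 to 0.34 for Cdk6 and from -0.36 to 0.016 for Cdkn1b. The differences of the KO effect ran from -0.49 to 0.18 for Ccnd1, -0.020 to 0.47 for Cdk6, -0.32 to 0.17 for Cdkn2c, -0.24 to 0.052 for Cdkn2d, -0.23 to 0.15 for Cdkn1b and -0.19 to 0.011 for Rb1. Between stages, Mta2 in controls ran from -0.30 to 0.076, and in the KO Ccnd2 ran from -0.56 to 0.12 and Ccnd3 from -0.16 to 0.27.

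Same-numbered titles deviated together weakly (correlations across genes of 0.0147 in pro-B cells and 0.102, 0.155 and 0.0449 in small pre-B cells), so the numbers were not taken to pair libraries. Each small pre-B KO library correlated best with its own number, a hint from the data and not the design. A group left with 1 library was assumed to vary like the others.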
